A study of Mus musculus with 24 samples.

Results

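Cells show fragments of their own proteins to T cells on MHC class I molecules, each made of a polymorphic heavy chain and the light chain beta-2-microglobulin. In the mouse, H2-K1 and H2-D1 encode the classical heavy chains, which present peptides to CD8 T cells, while the H2-Q and H2-T genes encode non-classical relatives with narrower tasks. Nlrc5 encodes the transactivator that binds the class I promoters through the RFX complex, and interferon-gamma (IFN-gamma) is known to raise it.

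The 8 genes described here are the light chain gene B2m, the heavy chain genes H2-K1, H2-D1, H2-Q4, H2-Q7, H2-T22 and H2-T23, and Nlrc5. They were picked by gene symbol, and all 8 were found among the 31062 features counted. All libraries came from poly-A RNA of the p53-deficient mouse ovarian cancer line ID8 p53-/-. In both lines the cells grew for 48 hours in all, either detached in ultra-low attachment (ULA) plates or adherent on regular plates. They received 100 ng/ml recombinant IFN-gamma, or PBS as vehicle, for the last 24 hours. The 8 groups, with 3 libraries each, were Ifngr1-KO ULA IFN-gamma, Ifngr1-KO ULA PBS, Ifngr1-KO adherent IFN-gamma, Ifngr1-KO adherent PBS, sgNTC ULA IFN-gamma, sgNTC ULA PBS, sgNTC adherent IFN-gamma and sgNTC adherent PBS. Ifngr1 encodes the ligand-binding chain of the IFN-gamma receptor, and sgNTC is the control line of the knockout. Each genotype is 1 line, so the knockout cannot be told apart from any other difference between the lines. Dead cells were removed from ULA wells only, so detachment cannot be told apart from that step.

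Libraries held 33494774 to 63154942 counts, of which the 8 genes together took 0.034% to 0.127%. Ifngr1 itself was still counted in the edited line, at 13.3 to 17 CPM (counts per 1000000 counts of the library) in the 12 Ifngr1-KO libraries, against 31.7 to 48.1 CPM in the 12 sgNTC libraries. Markers of the epithelial and mesothelial identity of ID8 cells summed to 1750 to 4510 CPM per library, and 7 of the 8 passed 1 CPM in at least 1 library. Of 7 macrophage markers only Cd68 passed 1 CPM, 3 of 5 T and NK cell markers were never counted, and none of 5 dendritic and B cell markers passed 1 CPM. A pair of libraries stood apart from their groups by the mean chi-square per gene between libraries. Replicate 2 of Ifngr1-KO ULA IFN-gamma lay at 20 and 25.3 from the other 2, which lay at 7.48 from each other. Replicate 3 of Ifngr1-KO adherent PBS lay at 19.1 and 19 from the other 2, which lay at 7.23. The labels call the 3 libraries of a group biological replicates, so p-values measure the spread between such cultures.

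The promoters of the light chain and of a pair of heavy chains are shown because these genes rose under IFN-gamma in ULA culture. Of the interferon-type motifs, B2m and H2-T22 hold the same core, and H2-K1 holds a different motif. Each line gives the 250 bases before the RefSeq start in GRCm38.p6, on the gene's strand. They are chr2:122147437-122147686 (plus strand) for B2m, chr17:34000348-34000597 (minus strand) for H2-K1 and chr17:36042743-36042992 (minus strand) for H2-T22. Capitals mark matches to the motifs spelled out after the sequences.
B2m: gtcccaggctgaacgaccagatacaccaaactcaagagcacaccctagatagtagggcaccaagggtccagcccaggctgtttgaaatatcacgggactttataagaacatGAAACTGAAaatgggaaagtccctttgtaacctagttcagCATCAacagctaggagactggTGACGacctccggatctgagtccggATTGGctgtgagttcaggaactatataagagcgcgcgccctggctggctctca
H2-K1: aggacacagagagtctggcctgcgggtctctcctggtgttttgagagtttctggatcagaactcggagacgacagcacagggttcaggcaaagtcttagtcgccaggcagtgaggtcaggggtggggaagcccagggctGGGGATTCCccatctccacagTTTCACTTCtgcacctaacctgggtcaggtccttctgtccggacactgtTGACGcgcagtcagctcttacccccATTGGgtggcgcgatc
H2-T22: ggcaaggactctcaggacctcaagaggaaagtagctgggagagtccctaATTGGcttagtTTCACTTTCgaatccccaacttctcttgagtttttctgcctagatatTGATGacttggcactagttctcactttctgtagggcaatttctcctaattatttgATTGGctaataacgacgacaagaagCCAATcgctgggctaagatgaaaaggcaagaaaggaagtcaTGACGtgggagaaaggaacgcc

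RefSeq promoters were matched for 7 of the 8 genes, all but Nlrc5, and both strands of the same 250 bases were searched in these and in 32851 promoters of the table. The interferon-stimulated response element core GAAANNGAA was present in B2m, H2-T22 and H2-T23, and in 7.13% of all promoters. A separate motif, GAANNGAAA, added after the sequences were read, was present in H2-K1, H2-D1, H2-Q4 and H2-Q7, and in 6.31% of all promoters. These 4 related genes all hold the same letters, TTTCACTTC. As the motif was added after reading, its presence in them is no test against that share. All 7 held CCAAT, found in 33.8% of promoters, and all 7 held TGACG or TGATG, the core of the X2 box of class I promoters, found in 46.9%. The kappa B site GGGGATTCC lay in H2-K1, H2-D1 and H2-Q7, against 0.213% of all promoters. The H2-D1 window, chr17:35262844-35263093, lies inside the gene as the count files place it. The H2-T23 window, chr17:36032702-36032951, overlaps its gene in part, and those of B2m and H2-T22 reach theirs only at the edge. These are matches of letters, not sites of binding, and a missing match says only that the letters are not in this window.

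Of the 8 genes, 6 passed the filter on low counts and were tested, by edgeR's quasi-likelihood test adjusted over 14622 genes after Benjamini-Hochberg. Words for a change are kept for genes whose adjusted p lay under 0.05. H2-Q4 had 2 counts in 1 of the 24 libraries, in sgNTC ULA IFN-gamma replicate 1. H2-Q7, which encodes a Qa-2 antigen, had 7 counts in 4 libraries, at most 2 in any one. Neither was tested. In GRCm38, as the deposited files give it, B2m lies at chr2:122147686-122153083 and Nlrc5 at chr8:94434356-94527272, both on the plus strand. The heavy chain genes lie in the H2 complex of chromosome 17, from H2-K1 at chr17:33996017-34000333 on the minus strand and H2-D1 at chr17:35262730-35267499 on the plus strand to H2-T23 at chr17:36029773-36032855 and H2-T22 at chr17:36037128-36042747, both on the minus strand. H2-Q4 at chr17:35379617-35385290 and H2-Q7 at chr17:35439155-35443773 lie between them on the plus strand, and their transcripts share stretches of 100 bases with other genes over 14.6% and 13.5% of their positions, where reads that map to several places were not counted.

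**Figure D1:**
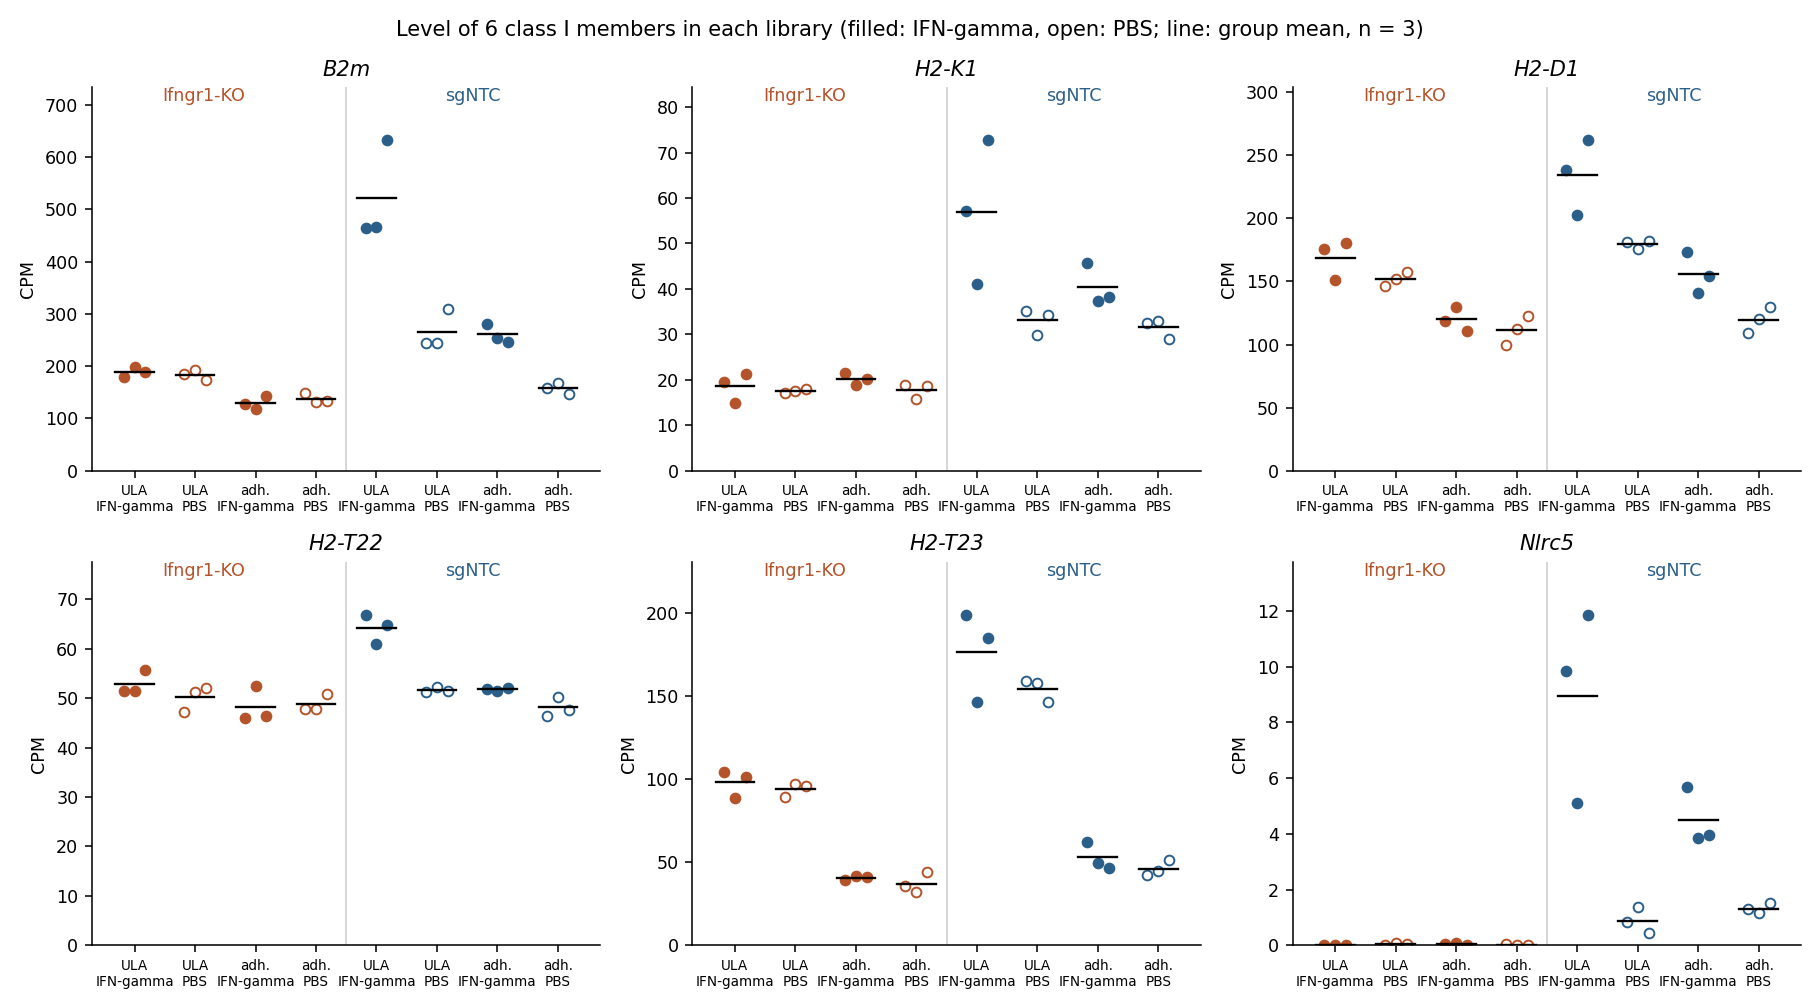
Level of the 6 tested genes in CPM in each library, with Ifngr1-KO groups left of sgNTC groups, IFN-gamma filled and PBS open, and the mean of 3 libraries as a line. Nlrc5 lies at or near 0 in all Ifngr1-KO libraries, H2-T23 follows the culture, and B2m reaches its highest values of 465 to 633 CPM in sgNTC ULA IFN-gamma.

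IFN-gamma raised none of the 6 tested genes in Ifngr1-KO cells of either culture. In sgNTC cells it raised B2m and Nlrc5 in both cultures, and H2-K1, H2-D1 and H2-T22 in ULA culture. H2-T23 did not pass the test in any of the 4 settings. In ULA cells the count was 0 of 6 in Ifngr1-KO, where 0% of all genes were called, and 5 of 6 in sgNTC, where 2.05% were called. In adherent cells it was 0 of 6 in Ifngr1-KO, with 0.00684% of all genes called, and 2 of 6 in sgNTC, with 0.315% called. At an unadjusted p under 0.05, edgeR had 1 of 6 in ULA and 0 of 6 in adherent Ifngr1-KO cells, against 1103 and 1215 of 14622 genes. The 1 was Nlrc5, with 0 counts under IFN-gamma and 5 under PBS. DESeq2 called 0 in both cultures. Without the library that stood apart, the count in each Ifngr1-KO culture was still 0.

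B2m, the light chain that all class I heavy chains need to reach the surface, was the most abundant of the 8 genes per kilobase in all 8 groups. In ULA Ifngr1-KO cells it stood at 179, 198 and 189 CPM with IFN-gamma and at 184, 193 and 174 CPM with PBS. In ULA sgNTC cells it stood at 465, 467 and 633 CPM with IFN-gamma, against 244, 245 and 309 CPM with PBS. The sgNTC groups did not overlap, while the Ifngr1-KO groups did. The log2 fold change was 0.04 (95% interval -0.20 to 0.27, adjusted p = 0.974) in Ifngr1-KO and 0.97 (0.74 to 1.2, adjusted p = 2.08e-05) in sgNTC cells. The sgNTC call was lost when only the compared groups were fitted (0.96, adjusted p = 0.098).

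In adherent Ifngr1-KO cells B2m had 127, 117 and 143 CPM with IFN-gamma, against 149, 131 and 134 CPM with PBS. In adherent sgNTC cells it had 282, 255 and 246 CPM with IFN-gamma, against 159, 169 and 147 CPM with PBS. Again only the sgNTC groups were apart. With IFN-gamma the log2 fold change was -0.10 (-0.33 to 0.14, adjusted p = 0.871) in Ifngr1-KO and 0.72 (0.49 to 0.96, adjusted p = 0.00294) in sgNTC cells. The difference between the lines in this response was itself tested. It was -0.93 (-1.26 to -0.60, adjusted p = 0.00400) in ULA and -0.82 (-1.15 to -0.48, adjusted p = 0.0489) in adherent cells, on the log2 scale. The adherent difference lost its call when any of 11 of the 12 libraries was left out, with adjusted p up to 0.151. Without the libraries that stood apart, the difference was -0.95 (adjusted p = 0.011) in ULA and -0.85 (adjusted p = 0.0808) in adherent cells.

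Nlrc5 had the largest rise with IFN-gamma of the 6 tested genes in sgNTC cells. In ULA Ifngr1-KO cells it had 0, 0 and 0 counts with IFN-gamma, against 0, 3 and 2 counts with PBS. In ULA sgNTC cells it had 397, 199 and 492 counts with IFN-gamma, which is 9.83, 5.1 and 11.9 CPM, against 55, 69 and 18 counts with PBS, which is 0.832, 1.38 and 0.435 CPM. The sgNTC groups lay far apart, although replicate 2 of the IFN-gamma group had less than the other 2. The log2 fold change in ULA sgNTC cells was 3.32 ± 0.36 (SE, adjusted p = 7.12e-07), a 9.99-fold rise.

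In adherent Ifngr1-KO cells Nlrc5 had 2, 4 and 0 counts with IFN-gamma, against 2, 0 and 0 counts with PBS. In adherent sgNTC cells it had 5.66, 3.85 and 3.97 CPM with IFN-gamma, against 1.29, 1.15 and 1.5 CPM with PBS. The sgNTC groups again did not overlap. The log2 fold change there was 1.78 ± 0.36 (SE, adjusted p = 0.0155), a 3.43-fold rise. This call was lost without replicate 1 of sgNTC adherent IFN-gamma or without any of the 3 libraries of sgNTC adherent PBS, with adjusted p up to 0.14. The response was 1.54 larger in ULA than in adherent sgNTC cells on the log2 scale (0.50 to 2.58), at an unadjusted p of 0.0051 and an adjusted p of 0.807.

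H2-K1 encodes a classical heavy chain. In ULA Ifngr1-KO cells it stood at 19.6, 14.9 and 21.3 CPM with IFN-gamma, against 17.1, 17.5 and 18 CPM with PBS. In ULA sgNTC cells it stood at 57.2, 41.1 and 72.7 CPM with IFN-gamma, against 35.2, 29.9 and 34.3 CPM with PBS. The Ifngr1-KO groups overlapped and the sgNTC groups did not. H2-K1 had a log2 fold change of 0.09 (-0.24 to 0.42, adjusted p = 0.945) in Ifngr1-KO and 0.78 (0.48 to 1.09, adjusted p = 0.00401) in sgNTC cells. This sgNTC call was lost when only the compared groups were fitted (adjusted p = 0.227). The difference between the lines was -0.69 (-1.14 to -0.25) with an adjusted p of 0.115. It was called by DESeq2 (adjusted p = 0.0195) and without replicate 2 of sgNTC ULA IFN-gamma (-0.87, adjusted p = 0.00292). Without replicate 2 of Ifngr1-KO ULA IFN-gamma, which stood apart, it was -0.54 and not called (adjusted p = 0.189).

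In adherent cells, the H2-K1 response did not pass the test in either line. Ifngr1-KO cells had 21.5, 18.9 and 20.2 CPM with IFN-gamma, against 18.9, 15.8 and 18.6 CPM with PBS. The sgNTC cells had 45.7, 37.4 and 38.3 CPM with IFN-gamma, against 32.5, 33 and 29.1 CPM with PBS. These sgNTC groups did not overlap, and the log2 fold change of 0.36 (0.05 to 0.67) had an adjusted p of 0.602, against 0.0299 when only the compared groups were fitted and 0.00883 with no filter on low counts. The last section gives why the value with no filter carries little weight.

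H2-D1 encodes the other classical heavy chain. In ULA Ifngr1-KO cells it had 176, 151 and 180.4 CPM with IFN-gamma, against 147, 152 and 158 CPM with PBS. In ULA sgNTC cells it had 238, 203 and 262 CPM with IFN-gamma, against 182, 176 and 182 CPM with PBS. The sgNTC groups were apart and the Ifngr1-KO groups overlapped. Its log2 fold change was 0.15 (-0.05 to 0.35, adjusted p = 0.767) in Ifngr1-KO and 0.38 (0.19 to 0.58, adjusted p = 0.0330) in sgNTC cells. The sgNTC call was lost when any of 5 of the 6 libraries was left out, with adjusted p up to 0.203.

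In adherent Ifngr1-KO cells H2-D1 had 119, 130.0 and 111 CPM with IFN-gamma, against 99.5, 113 and 122 CPM with PBS. In adherent sgNTC cells it had 174, 141 and 154 CPM with IFN-gamma, against 109, 119.9 and 129.6 CPM with PBS. The sgNTC groups were apart, yet the log2 fold change of 0.39 (0.19 to 0.59) missed the threshold with an adjusted p of 0.111. DESeq2 called it, with an adjusted p of 0.0067.

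Among the non-classical chains, H2-T22 is recognised directly by a subset of gamma delta T cells and H2-T23 encodes Qa-1, which shows leader peptides of other class I chains to the CD94 receptors of NK cells. H2-T22 had 51.4, 51.4 and 55.7 CPM with IFN-gamma, against 47.2, 51.2 and 52.1 CPM with PBS, in ULA Ifngr1-KO cells. It had 66.9, 60.9 and 64.8 CPM with IFN-gamma, against 51.3, 52.3 and 51.5 CPM with PBS, in ULA sgNTC cells. All 3 sgNTC ULA IFN-gamma libraries exceeded every other library of the study. The sgNTC rise was 1.24-fold (log2 fold change 0.31, 0.19 to 0.44, adjusted p = 0.00223), and the difference of Ifngr1-KO from sgNTC in this response was -0.24 with an adjusted p of 0.175.

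The H2-T22 value carries a limit of counting. Its exons overlap those of the antisense gene A930015D03Rik over 29.4% of their length, counting was unstranded, and 38.1% of the 100-base stretches of its transcript occur in other genes. In adherent Ifngr1-KO cells it stood at 45.9, 52.5 and 46.5 CPM with IFN-gamma, against 47.8, 47.7 and 50.9 CPM with PBS. In adherent sgNTC cells it stood at 51.8, 51.4 and 52 CPM with IFN-gamma, against 46.4, 50.3 and 47.6 CPM with PBS, with a log2 fold change of 0.11 (adjusted p = 0.740).

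H2-T23 did not separate by treatment. In ULA Ifngr1-KO cells it had 104, 88.5 and 101 CPM with IFN-gamma, against 89.1, 96.7 and 95.6 CPM with PBS. In ULA sgNTC cells it had 199, 146 and 184 CPM with IFN-gamma, against 159, 158 and 146 CPM with PBS. Both pairs of groups overlapped. The log2 fold change was 0.06 (-0.19 to 0.31) in Ifngr1-KO and 0.19 (-0.05 to 0.44, adjusted p = 0.531) in sgNTC ULA cells. In adherent cells it was 0.13 (-0.13 to 0.39) in Ifngr1-KO and 0.20 (-0.06 to 0.46, adjusted p = 0.767) in sgNTC. The upper ends of the sgNTC intervals, 0.44 and 0.46, lie above the log2 fold changes of H2-D1 in the same cells, 0.38 and 0.39.

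**Figure D2:**
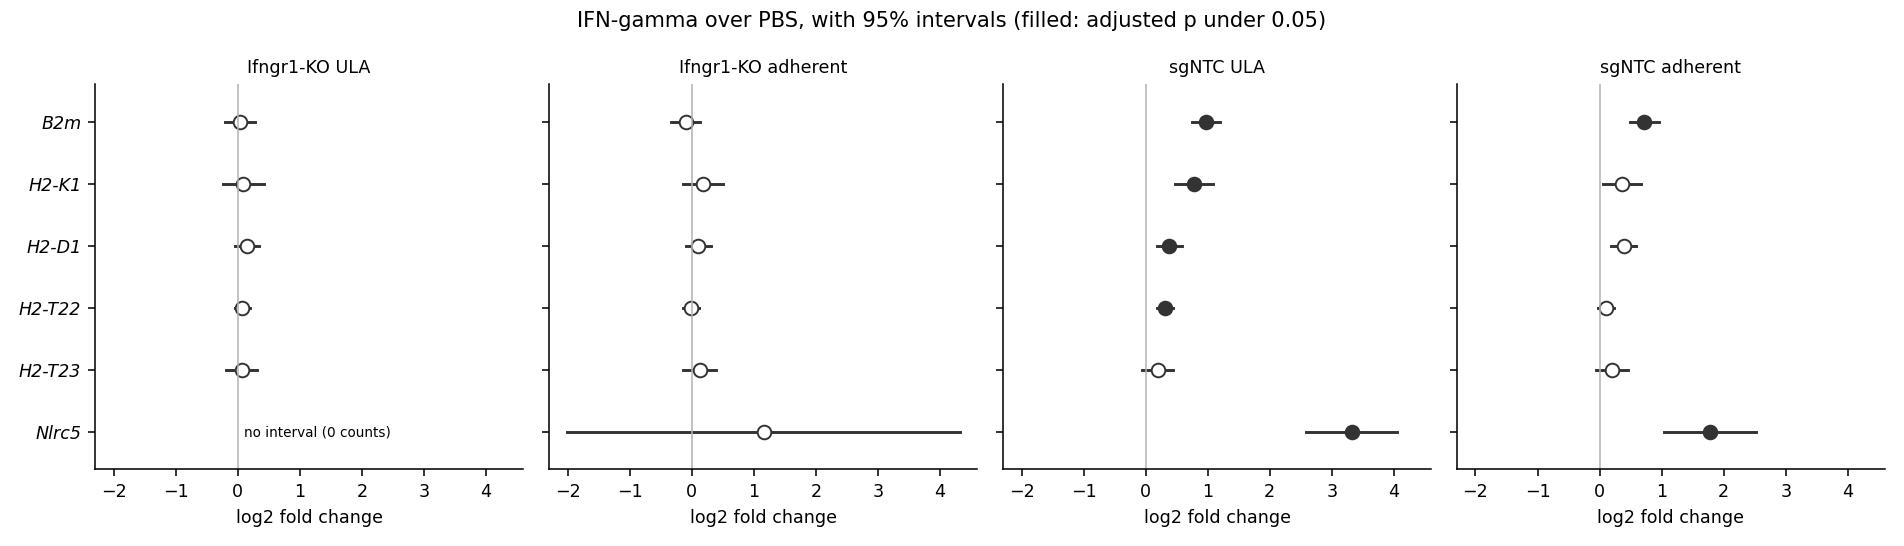
Log2 fold change of IFN-gamma over PBS for the 6 tested genes, with 95% intervals and filled points for adjusted p under 0.05, in Ifngr1-KO ULA, Ifngr1-KO adherent, sgNTC ULA and sgNTC adherent cells. No point is filled in Ifngr1-KO cells, 5 are filled in ULA sgNTC cells and 2 in adherent sgNTC cells.

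Whether the responses of sgNTC cells differed between cultures was tested as a difference of differences. At an unadjusted p under 0.05, edgeR had 2 of 6 (H2-T22 and Nlrc5), against 781 of 14622 genes. None of the 6 genes passed after adjustment, against 0.0479% of all genes, and DESeq2 called 0. So the calls of H2-K1, H2-D1 and H2-T22 in ULA cells alone are not shown to differ from the adherent responses. For H2-D1 that difference was -0.01 (-0.28 to 0.27) on the log2 scale. The difference between the lines was called for 1 of 6 genes in each culture, B2m, against 1.33% of all genes in ULA and 0.13% in adherent cells. For Nlrc5 the ULA difference had an adjusted p of 0.0523, and its fitted size is no measure because 1 of the groups had no count. It passed without replicate 2 of sgNTC ULA IFN-gamma (adjusted p = 0.0303) or of sgNTC ULA PBS (adjusted p = 0.0378). It did not pass without replicate 2 of Ifngr1-KO ULA IFN-gamma, which stood apart (adjusted p = 0.0626).

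Without IFN-gamma, cells in ULA culture had more B2m, H2-D1 and H2-T23 than adherent cells, in both lines. That was 3 of 6 genes in Ifngr1-KO, where 60.7% of all genes were called, and 3 of 6 in sgNTC, where 64.6% were called. Such a share is near the background of this comparison. The change of H2-T23 was the largest among the 6. In Ifngr1-KO cells H2-T23 averaged 93.8 ± 4.1 CPM in ULA, against 37.1 ± 6.23 CPM in adherent culture (SD, n = 3 each). In sgNTC cells it averaged 154 ± 6.76 CPM in ULA, against 46.1 ± 4.82 CPM in adherent culture. No ULA library overlapped an adherent one of the same line. On the log2 scale this was a change of 1.34 (1.08 to 1.60, adjusted p = 9.52e-09) in Ifngr1-KO and 1.75 (1.49 to 2.00, adjusted p = 1.11e-10) in sgNTC cells.

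B2m rose by 0.42 (adjusted p = 0.00338) in Ifngr1-KO and by 0.75 (adjusted p = 7.73e-06) in sgNTC cells on the log2 scale with ULA culture. H2-D1 rose by 0.45 (adjusted p = 2.87e-04) in Ifngr1-KO and by 0.59 (adjusted p = 9.59e-06) in sgNTC cells. The H2-K1 values were -0.02 for Ifngr1-KO (-0.35 to 0.31) and 0.07 for sgNTC (-0.24 to 0.38), and H2-T22 gave 0.04 in Ifngr1-KO and 0.10 in sgNTC cells (adjusted p = 0.142). The H2-T22 change in sgNTC cells was called by DESeq2 (0.14, adjusted p = 0.0439) and with scaling by library totals (0.20, adjusted p = 0.00622). Nlrc5 in sgNTC cells gave -0.55 (-1.34 to 0.23, adjusted p = 0.210), at 0.884 ± 0.477 CPM in ULA and 1.31 ± 0.176 CPM in adherent culture (SD, n = 3 each). Without replicate 2 of sgNTC ULA PBS, Nlrc5 fell by 1.01 and passed, with an adjusted p of 0.0374 by edgeR. Leaving out replicate 3 of Ifngr1-KO adherent PBS, which stood apart, left the same 3 genes called, with H2-T23 at 1.5. Markers listed for fibroblasts, nearly all from Dcn and with Lum at 0 in every library, differed by culture too. They summed to 93.5 to 98.1 CPM in ULA and 16.6 to 18.4 CPM in adherent PBS libraries of Ifngr1-KO cells. In sgNTC cells they summed to 96.3 to 99 CPM in ULA and 44.2 to 54.8 CPM in adherent PBS libraries. The macrophage list, nearly all from Cd68 and with Tyrobp at 0, in Ifngr1-KO cells summed to 16.8 to 21.3 CPM in ULA and 5.67 to 7.68 CPM in adherent culture, and for sgNTC cells to 6.86 to 7.5 CPM in ULA and 3.19 to 3.66 CPM in adherent culture. The endothelial list, mostly from Pecam1, summed to 1.32 to 2.37 CPM in ULA and 0.47 to 0.745 CPM in adherent Ifngr1-KO PBS libraries. In sgNTC PBS libraries it summed to 2.8 to 3.65 CPM in ULA and 0.484 to 0.873 CPM in adherent culture. The part of these genes in the result was not tested. In bulk RNA a change in the number of cells of a kind and a change in RNA per cell cannot be told apart.

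The effect of ULA culture was smaller in Ifngr1-KO than in sgNTC cells by 0.41 for H2-T23 (adjusted p = 0.0896) and by 0.33 for B2m (adjusted p = 0.135). Neither passed, though H2-T23 passed without replicate 2 of Ifngr1-KO adherent PBS (-0.49, adjusted p = 0.0422). Without replicate 3 of that group, which stood apart, H2-T23 gave -0.25 and did not pass (adjusted p = 0.298). In edgeR 0 of 6 genes were called for this difference, against 27.8% of all genes, and DESeq2 called 1, H2-T23. At an unadjusted p under 0.05, edgeR had 1 of 6, against 5467 of 14622 genes.

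The Ifngr1-KO line had lower levels of several of these genes than the sgNTC line without any added IFN-gamma. In ULA culture 5 of 6 were lower, where 50.1% of all genes were called in either direction. In adherent culture 2 of 6 were lower, where 43.9% were called. Of 14622 genes, 3736 were lower in ULA and 3489 in adherent culture, so the adherent count is near the background. H2-K1 was lower in both cultures. It averaged 17.5 ± 0.476 CPM in Ifngr1-KO and 33.1 ± 2.8 CPM in sgNTC cells in ULA culture, and 17.8 ± 1.73 CPM in Ifngr1-KO and 31.5 ± 2.13 CPM in sgNTC cells in adherent culture (SD, n = 3 each). None of the 12 Ifngr1-KO libraries, treated or not, reached the lowest sgNTC value of 29.1 CPM. The log2 fold change was -0.92 (-1.24 to -0.60, adjusted p = 3.18e-05) in ULA and -0.83 (-1.15 to -0.51, adjusted p = 1.52e-04) in adherent cells.

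H2-T23 fell by 0.72 on the log2 scale in Ifngr1-KO ULA cells (-0.97 to -0.47, adjusted p = 4.27e-05), and B2m fell by 0.53 (adjusted p = 5.38e-04). H2-D1 fell by 0.24, with an adjusted p of 0.0389 that rose above the threshold whichever of the 6 libraries was left out, up to 0.207. In adherent cells H2-T23 was -0.31 with an adjusted p of 0.0535, B2m was -0.20 (adjusted p = 0.167) and H2-D1 was -0.10 (adjusted p = 0.436). Without replicate 3 of Ifngr1-KO adherent PBS, the adherent H2-T23 difference was -0.43 and passed, with an adjusted p of 0.0117. It also passed by DESeq2 (adjusted p = 0.0204), with the replicate block (0.0406), from the compared groups alone (0.035), with no filter on low counts (1.99e-04) and without replicate 1 of sgNTC adherent PBS (0.0473). B2m passed there from the compared groups alone (0.0221) and with no filter (0.0117). The last section gives why the values with no filter carry little weight. H2-T22 stood at -0.04 in ULA and 0.02 in adherent cells, with intervals of -0.17 to 0.08 and -0.11 to 0.15.

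**Figure D3:**
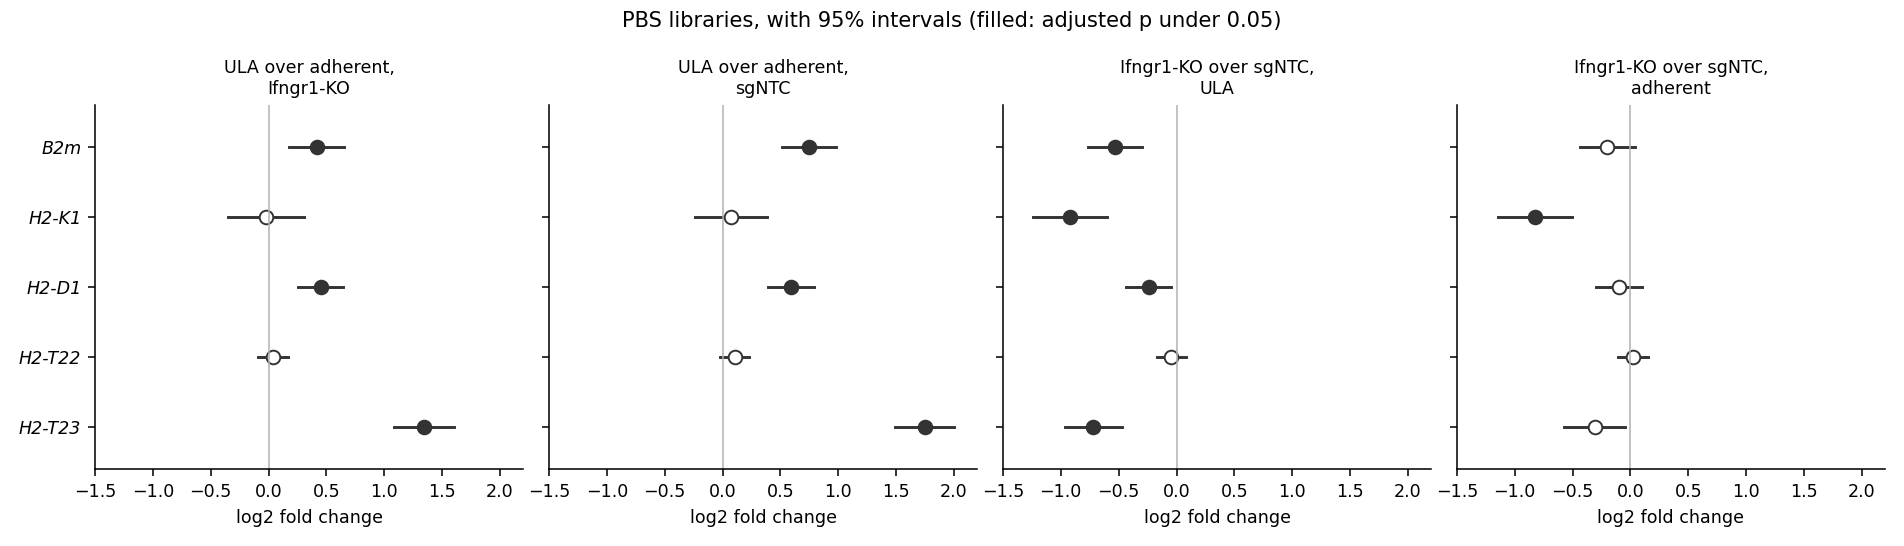
Log2 fold changes in PBS libraries, with 95% intervals and filled points for adjusted p under 0.05, of ULA over adherent culture in each line and of Ifngr1-KO over sgNTC in each culture, for the 5 chains tested. H2-T23 has the largest change with culture, at 1.34 and 1.75, and H2-K1 the largest between the lines, at -0.92 and -0.83.

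Nlrc5 was almost uncounted in the Ifngr1-KO line whatever the culture or treatment. With PBS it summed to 5 counts in Ifngr1-KO, against 142 in sgNTC libraries, in ULA culture, which is 21.1-fold lower per library size (95% counting interval 8.82 to 65.9). In adherent PBS cultures it summed to 2 counts in Ifngr1-KO, against 159 in sgNTC, 79.2-fold lower (21.6 to 659). With IFN-gamma the sums were 6 in Ifngr1-KO, against 516 in sgNTC, in adherent culture, which is 113-fold lower (51.5 to 309). In ULA culture they were 0 in Ifngr1-KO and 1088 in sgNTC, at least 391-fold lower against a floor of 3 counts over the group. Both mates of a read pair were counted, so floors and intervals cover counting error only and are narrower than those of read pairs. The tested log2 fold changes with PBS were -4.29 (adjusted p = 2.16e-06) in ULA and -6.08 (adjusted p = 6.12e-08) in adherent cells.

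The 3 nearest tested genes on either side of Nlrc5 on chromosome 8 were looked at after this was seen. Genes below the filter on low counts were passed over. In PBS ULA cells, Rspry1 had 36.7 CPM in Ifngr1-KO and 37.7 CPM in sgNTC, and Cpne2 had 17.7 CPM in Ifngr1-KO and 14.7 CPM in sgNTC (adjusted p = 0.697 and 0.0576). Herpud1, an endoplasmic reticulum stress gene, had 82.7 CPM in Ifngr1-KO and 55.4 CPM in sgNTC (adjusted p = 1.12e-08). Fam192a had 57 CPM in Ifngr1-KO and 64.3 CPM in sgNTC (adjusted p = 0.012). The barely counted 9330175E14Rik, whose exons overlap 0.918% of those of Nlrc5, had 0 CPM in Ifngr1-KO and 0.0764 CPM in sgNTC (adjusted p = 0.0222), and Gm15890 had 0.0431 CPM in Ifngr1-KO and 0.0532 CPM in sgNTC. In PBS adherent cells Herpud1 had 826 CPM in Ifngr1-KO and 851 CPM in sgNTC, and Rspry1 had 41.8 CPM in Ifngr1-KO and 49.8 CPM in sgNTC (adjusted p = 0.614 and 0.00424). There Cpne2, the nearest tested gene downstream, was higher, at 11.9 CPM in Ifngr1-KO and 8.81 CPM in sgNTC (adjusted p = 0.00473). Fam192a had 64.4 CPM in Ifngr1-KO and 68.6 CPM in sgNTC in these cells (adjusted p = 0.208). The 4 neighbours above 1 CPM were thus counted in both lines.

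Compared per kilobase of exon, the light chain exceeded the summed heavy chains in every group. The length used joins all annotated exons. It was 2608 bases for H2-K1 and 2579 for H2-D1, against 1874 and 2102 in their longest transcripts. For B2m both were 860 bases. Reads that map to several places were not counted, and 38.1% of 100-base stretches of H2-T22 occur in other genes, against 0% for B2m. Both points can lower the heavy chain sum against B2m, by an amount not measured. The heavy chain sum of H2-K1, H2-D1, H2-Q4, H2-Q7, H2-T22 and H2-T23 was highest in sgNTC ULA IFN-gamma, at 193 ± 26.1 CPM per kb, against 151 ± 2.52 CPM per kb in sgNTC ULA PBS (SD, n = 3 each). It was lowest in Ifngr1-KO adherent PBS, at 77.2 ± 6.64 CPM per kb. B2m stood at 3.15 ± 0.427 times the heavy chain sum in sgNTC ULA IFN-gamma, against 2.05 ± 0.309 times in sgNTC ULA PBS. In sgNTC adherent cells the ratio was 2.78 ± 0.131 with IFN-gamma and 2.09 ± 0.218 with PBS. In Ifngr1-KO cells it was 1.81 ± 0.248 with IFN-gamma and 1.90 ± 0.134 with PBS in ULA culture. There it was 1.83 ± 0.278 with IFN-gamma and 2.09 ± 0.281 with PBS in adherent culture. The libraries of the IFN-gamma and PBS groups did not overlap in this ratio in sgNTC cells of either culture. It is a description, with no test.

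The make-up of the heavy chains differed by culture, and for H2-K1 also by line within each culture. H2-D1 held 46.2% to 56.4% of the sum as group means, the largest share in all 8 groups. H2-T23 held 27.8% to 35.4% in the 4 ULA groups, against 16.6% to 18% in the 4 adherent groups. In ULA culture H2-K1 held 5.82% and 5.96% in the Ifngr1-KO groups, against 8.42% and 11.2% in the sgNTC groups. In adherent culture it held 8.87% and 9.42% in the Ifngr1-KO groups, against 13.7% and 14.2% in the sgNTC groups. H2-T22 held the rest, 9.85% to 18.6%. The shares depend on the division by exon length, and without it H2-T22 held 12.2% to 22.7%. H2-Q4 reached at most 0.00942% and H2-Q7 at most 0.0132% in any library.

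**Figure D4:**
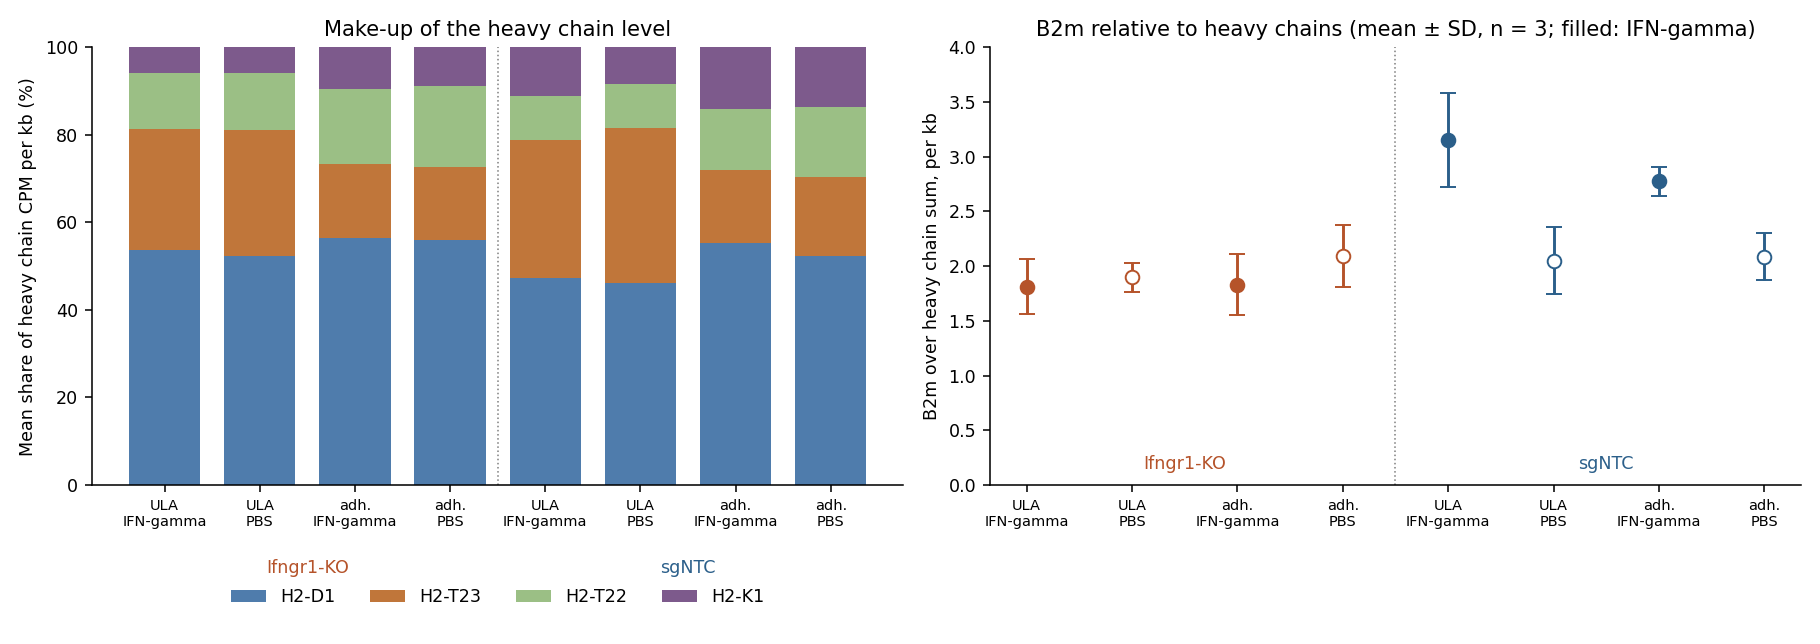
Left, mean share of each heavy chain in the heavy chain level per kb, as percent, in the 8 groups with Ifngr1-KO left of sgNTC. Right, B2m over the heavy chain sum per kb as mean ± SD of 3 libraries. The H2-T23 share is larger in ULA than in adherent groups, and the ratio stands at 3.15 and 2.78 in the IFN-gamma groups of sgNTC cells, against 1.81 to 2.09 in the other 6 groups.

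Ordered by mean level, B2m was highest in sgNTC ULA IFN-gamma at 521 ± 96.4 CPM (SD, n = 3). It was followed by sgNTC ULA PBS at 266 CPM and sgNTC adherent IFN-gamma at 261 CPM, whose libraries overlapped. Both Ifngr1-KO ULA groups came next, at 189 CPM with IFN-gamma and 184 CPM with PBS, also overlapping. The last 3, sgNTC adherent PBS at 158 CPM, Ifngr1-KO adherent PBS at 138 CPM and Ifngr1-KO adherent IFN-gamma at 129 CPM, each overlapped the next. For H2-T23 the order ran by culture first, with the 4 ULA groups above the 4 adherent ones, and within each culture the sgNTC groups above the Ifngr1-KO groups. For H2-K1 and Nlrc5 it ran by line first, with the 4 sgNTC groups above the 4 Ifngr1-KO groups.

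The genes whose log2 CPM followed each other most closely over the 24 libraries were ranked by Pearson's r, a description in which libraries of a group are not independent points. For B2m these were Igtp (0.969), Irgm1 (0.958), Irgm2 (0.957), Bst2 (0.956) and Irf9 (0.953), all interferon-inducible genes. For Nlrc5 they were Gm4070 (0.956), Amer1 (0.95), Samd5 (0.939), Map2 (0.935) and Tet3 (0.934). Samd5 and Map2 were at 0 CPM in all 4 Ifngr1-KO groups, where Nlrc5 was nearly uncounted as well. For H2-K1 they were Gm4070 (0.943), Sp110 (0.924), Oas1g (0.922), Rnf213 (0.920) and Stat2 (0.919). These lists of 5 genes changed in all 6 alternatives checked, so which genes are named depends on how the ranking was made.

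Genes that supply peptides and load them onto class I were taken as a list. Of 18 listed, 0 passed in either direction in Ifngr1-KO cells of either culture, against 0% of all genes in ULA and 0.00684% in adherent culture. In sgNTC cells 8 rose and 1 fell in ULA culture, where 2.05% of all genes were called, and 7 rose in adherent culture, where 0.315% were called. The list's median log2 fold change in ULA cells was 0.01 in Ifngr1-KO and 0.40 in sgNTC, against 0.00967 and 0.00299 over all tested genes. In ULA sgNTC cells Psmb10, an immunoproteasome subunit, had 60.4 ± 10.5 CPM with IFN-gamma, against 29.6 ± 1.6 CPM with PBS (log2 fold change 1.03, adjusted p = 2.55e-07). Erap1, which trims peptides, had 102 ± 13.2 CPM with IFN-gamma, against 62.5 ± 4 CPM with PBS (0.71, adjusted p = 4.11e-07). Tapbpl, a peptide editor, had 30.1 ± 4.95 CPM with IFN-gamma, against 16.8 ± 0.356 CPM with PBS (0.84, adjusted p = 2.51e-06). The gene that fell was the aminopeptidase Npepps, by 0.23 (adjusted p = 0.0492). In the PBS comparison of the lines in ULA culture, 7 of the 18 were higher and 4 lower in Ifngr1-KO cells, where 50.1% of all genes were called. The chaperone Canx was higher, at 1231 ± 27.6 CPM in Ifngr1-KO and 796 ± 28.2 CPM in sgNTC cells, and so was the oxidoreductase Pdia3, at 811 ± 3.78 CPM in Ifngr1-KO and 596 ± 25 CPM in sgNTC cells. Among the lower genes, Tap2, a subunit of the peptide transporter, had 6.73 ± 0.873 CPM in Ifngr1-KO and 22.7 ± 0.824 CPM in sgNTC cells.

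Of 20 tested factors that act on class I control regions, 0 passed with IFN-gamma in Ifngr1-KO cells of either culture, and 5 rose in ULA and 3 in adherent sgNTC cells. The shares of all genes called were 0% in ULA and 0.00684% in adherent Ifngr1-KO cells, and 2.05% in ULA and 0.315% in adherent sgNTC cells. Irf1, a transcription factor of the IFN-gamma response, had 131 ± 26.3 CPM with IFN-gamma, against 48.4 ± 2.07 CPM with PBS, in ULA sgNTC cells. Stat2 had 114 ± 16.3 CPM with IFN-gamma, against 46.3 ± 3.06 CPM with PBS, and Irf9 had 59.2 ± 7.42 CPM with IFN-gamma, against 28.7 ± 3.12 CPM with PBS. Ciita, the class II counterpart of Nlrc5, rose as well. The response was larger in ULA than in adherent sgNTC cells for Irf1 (by 0.79) and Stat2 (by 0.89), with an adjusted p of 0.00753 for each. With PBS in ULA culture, 4 of the 20 were higher and 10 lower in Ifngr1-KO cells, against 50.1% of all genes called. Nfkb1 was higher, at 120.4 ± 4.51 CPM in Ifngr1-KO and 92.8 ± 1.83 CPM in sgNTC cells, while Irf2 had 29.4 ± 2.43 CPM in Ifngr1-KO and 65.3 ± 2.56 CPM in sgNTC cells.

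The remaining class I relatives were mostly low. Of 22 listed, 15 were in the files and 6 were tested, and 0 of these passed with IFN-gamma in any of the 4 settings. Of all genes, 0% were called there in ULA and 0.00684% in adherent Ifngr1-KO cells. In sgNTC cells the shares were 2.05% in ULA and 0.315% in adherent culture. With ULA culture 2 of the 6 rose and 2 fell in Ifngr1-KO cells, and 4 rose and 1 fell in sgNTC cells, where 60.7% and 64.6% of all genes were called. Fcgrt, the neonatal Fc receptor chain, rose to 4.2 ± 0.341 CPM against 1.18 ± 0.205 CPM in adherent Ifngr1-KO cells and to 11.1 ± 1.88 CPM against 1.1 ± 0.374 CPM in adherent sgNTC cells. Hfe, a class I relative in iron control, rose by 0.64 in Ifngr1-KO and by 1.04 in sgNTC cells on the log2 scale. H2-T24 fell by 0.75 in Ifngr1-KO cells. H2-M3, which presents formylated peptides, fell, to 4.91 ± 0.828 CPM against 15.3 ± 1.84 CPM in adherent Ifngr1-KO cells and to 5.36 ± 0.729 CPM against 14 ± 1.81 CPM in adherent sgNTC cells. Between the lines in ULA PBS cells, 0 of the 6 were higher and 4 lower in Ifngr1-KO, where 50.1% of all genes were called. Among the lower was Hfe, with 6.76 ± 0.542 CPM in Ifngr1-KO and 16.7 ± 0.239 CPM in sgNTC cells. Of 4 tested ligands of NK cell receptors, 0 passed with IFN-gamma in any setting, against the same shares of all genes. In ULA PBS cells 1 of the 4 was higher in Ifngr1-KO and 0 lower, against 50.1% of all genes called. It was Ulbp1, with 12.2 ± 0.702 CPM in Ifngr1-KO and 5.93 ± 0.839 CPM in sgNTC cells (log2 fold change 1.05).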

How the data were processed

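Gene counts of 24 poly-A RNA libraries of mouse ID8 p53-/- cells were used as the authors deposited them. Per the file headers, the counts came from featureCounts 2.1.1 over paired-end alignments, with no strand, no reads that map to several places, and each mate adding 1 count. Trimmomatic, HISAT2, SAMtools and DESeq2 and the build GRCm38 (mm10) are named in the submitters' processing notes, with the versions of the first 4 not given in the sources used. Symbols were matched for 30934 of 31062 features. Genes were kept by filterByExpr in edgeR 4.0.16 (minimum count 10), which left 14622, scaled by TMM (factors 0.958 to 1.054) and tested with edgeR's robust quasi-likelihood test over 8 group means, all 24 libraries sharing 1 estimate of the spread. p-values were adjusted after Benjamini-Hochberg over all tested genes, and a call needs an adjusted p under 0.05. CPM uses TMM-scaled library sizes. Other settings included DESeq2 1.42.0 and leaving out each library. The test was checked on simulated counts. Replicate numbers were checked for pairing: deviations of same-numbered libraries correlated at -0.0612 to 0.0519, so no block was used. Named list genes were among the 3 with the lowest adjusted p of their list and comparison, apart from Npepps, Ciita and Hfe. Npepps and Ciita were named after their values were seen. Hfe was below the first 3 for ULA culture in Ifngr1-KO cells. The genes and lists were chosen with earlier results of these data known. A gene of the lists enters the counts and is not reported by name here.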

Additional observations from a re-analysis of the deposited data

Results flagged for a closer look

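The B2m response to IFN-gamma differed between the lines by the test of the difference itself, in both cultures. In ULA culture Ifngr1-KO minus sgNTC was -0.93 on the log2 scale (edgeR adjusted p = 0.00400), and this call held in all 19 alternatives, with a highest adjusted p of 0.0409. In adherent culture it was -0.82 (edgeR adjusted p = 0.0489), and this call was lost in 13 of 19 alternatives, with a highest adjusted p of 0.151.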

How the results depend on the processing

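Of 22 calls on single genes, 16 held in every alternative and 6 were lost in at least 1; no direction reversed. The cause was not tested where a call changed. For IFN-gamma in adherent sgNTC cells, 2 genes were called, 4 with no filter on low counts, 4 from the compared groups alone, and 1 to 2 when 1 library was left out. For IFN-gamma in ULA sgNTC cells, 5 were called, 3 from the compared groups alone, which lost B2m (adjusted p = 0.098) and H2-K1 (adjusted p = 0.227), and 4 to 5 with 1 library left out. Between the lines with PBS, 2 were called in adherent cells, 4 with no filter, 4 from the compared groups alone and 2 to 3 with 1 library left out; in ULA cells 5 were called, and 4 with 1 library left out. For the response of Ifngr1-KO minus sgNTC in adherent cells, 1 was called, 0 with the replicate block (B2m adjusted p = 0.05), 0 with counts halved (0.0596) and 0 to 1 with 1 library left out. In ULA cells 1 was called, 2 with library totals, 3 with no filter, 2 with the replicate block (B2m and H2-K1), 2 by DESeq2 and 1 to 3 with 1 library left out. For the ULA effect of Ifngr1-KO minus sgNTC, 0 were called, 2 with library totals, 2 with no filter, 1 by DESeq2, 2 from the compared groups alone and 0 to 1 with 1 library left out. With ULA culture, 3 to 4 were called in sgNTC cells, the fourth being Nlrc5, lower, without sgNTC ULA PBS replicate 2, and 3 in Ifngr1-KO cells with 1 library left out. The replicate block also called H2-T23 between the lines in adherent cells (adjusted p = 0.0406). Replicate numbers did not pair the libraries. The depth leaves H2-Q4, H2-Q7 and, in Ifngr1-KO cells, Nlrc5 without a usable fold change.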
